A study of Mus musculus with 39 samples.

Results

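Molecular chaperones were followed through mouse oocytes and pre-implantation embryos, and through embryos given an inhibitor of histone deacetylases (HDACi) as zygotes. The 10 genes were chosen by name, with earlier results of these data known. They were the HSP70 genes Hspa1a, Hspa1b, Hspa8 and Hspa5, the HSP110 gene Hsph1 and the HSP90 genes Hsp90aa1 and Hsp90ab1. The others were the cochaperone genes Dnajb1 and Bag5, and Hsf1, which encodes a transcription factor that drives heat shock genes. Of the 34797 gene names on the array, 21629 were tested, and 9 of the 10 chaperone genes were among them, with 13 probes in all. No probe carried the name Hspa1b, but the only Hspa1a probe is listed under transcripts of both genes, so that its signal stands for Hspa1a and Hspa1b together.

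The series held 39 arrays, 3 for each of 13 conditions, each hybridized with RNA of 100 oocytes or embryos, and the arrays of a condition were independent samples. The untreated conditions were germinal vesicle (GV) oocytes, metaphase II (MII) oocytes, 1-cell, 2-cell, 4-cell and 8-cell embryos, morulae and blastocysts. Zygotes were exposed to 10 µM T247 or 10 µM MGCD0103 for 6 h, starting 4 h after insemination, and were then returned to normal culture. T247 is described as selective for HDAC3 and MGCD0103 as acting mainly on class I HDACs. T247-treated embryos were collected 12, 24 and 48 h post-insemination, as 1-cell, 2-cell and then 4-cell embryos, and MGCD0103-treated embryos at the first 2 of these times, each with untreated controls. All samples had the label B6D2F1 x ICR. Per the study's methods the oocytes came from hormone-primed B6D2F1 females and the sperm from ICR males, and fertilization was done in vitro. Whole embryos were pooled. Signals were normalized between arrays, so that they are relative to the other RNA of an array. The number of cells differs between stages, and neither the amount of RNA per embryo nor that per cell can be read from the signals.

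HSP70 proteins bind unfolded stretches of other proteins in a cycle driven by ATP; J proteins such as the product of Dnajb1 start the cycle, and nucleotide exchange factors such as the products of Bag5 and Hsph1 reopen it. HSP90 proteins act later, on nearly folded clients such as kinases and steroid receptors. Heat and other stress release HSF1, which binds repeats of the bases GAA and TTC before heat shock genes, whereas the chaperone of the endoplasmic reticulum encoded by Hspa5 (BiP) answers to an element of its own, used by ATF6 and XBP1. In the mouse, transcription of the Hspa1 genes is known as one of the first signs that the embryonic genome has become active.

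The promoters show both kinds of element. RefSeq windows from 250 bases before to 50 bases after the start of transcription (build GRCm38.p6) were at hand for 6 of the 10 genes, Hspa1a, Hspa1b, Hspa5, Hsph1, Dnajb1 and Bag5. In the 3 upstream stretches below, capitals mark the bases of the element that were searched for. They are shown because Hspa1a and Hsph1 carry heat shock elements and Hspa5 the element of the endoplasmic reticulum. Whether an element bears on the course of its gene through development was not tested.
Hspa1a, chr17:34972207-34972306, minus strand: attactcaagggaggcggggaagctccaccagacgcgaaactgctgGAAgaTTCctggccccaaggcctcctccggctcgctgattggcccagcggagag
Hsph1, chr5:149636337-149636396, minus strand: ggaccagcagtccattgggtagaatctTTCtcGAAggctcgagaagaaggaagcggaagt
Hspa5, chr2:34771950-34772089, plus strand: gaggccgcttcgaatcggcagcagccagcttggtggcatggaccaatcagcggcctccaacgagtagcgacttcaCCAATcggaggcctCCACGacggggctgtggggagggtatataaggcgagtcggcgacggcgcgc

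The Hspa1b promoter has the same stretch as Hspa1a, at chr17:34959289-34959388 on the minus strand, and the pair differed in 3 of the 250 upstream bases. In both, GAANNTTC began at position -104 from the start. Hsph1 held TTCNNGAA at -33 and, after the start at position 37, the longer form TTCNNGAANNTTC, which reads TTCtgGAAagTTC. Hspa5 held the endoplasmic reticulum stress element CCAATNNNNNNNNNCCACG at -65. Motifs were searched on both strands in all 32851 windows: 15.1% held GAANNTTC or TTCNNGAA, 0.603% held TTCNNGAANNTTC or GAANNTTCNNGAA, and 0.119% held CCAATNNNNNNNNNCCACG or its reverse complement. The longer heat shock form contains the shorter one. The Hsph1 positions count from the start used above, and from another annotated start of the gene the same elements lay at -54 and 16. The windows of Dnajb1 and Bag5 held none of these letters.

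The probes matter where a gene had several and they disagreed. The Hspa1a probe is given whole and the brighter Bag5 probe and both Hsph1 probes by their first 30 bases; the build is mm9, as in the scanner files, the range is that of the whole probe, and no bases are in capitals.
Hspa1a, chr17:35107117-35107176, minus strand: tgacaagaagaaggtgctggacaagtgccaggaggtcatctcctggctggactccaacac
Bag5, brighter probe, chr12:112948069-112948128, minus strand: tcagtatttctgctgcttttgatgttgcaa
Hsph1, brighter probe, chr5:150419744-150419803, minus strand: atgaactacactgcttggtcacacgctggg
Hsph1, dimmer probe, chr5:150420110-150420169, minus strand: caaaaataatcttggtgctgaagctccgca

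Values below are log2 signals after smooth quantile normalization between arrays, and each gene is represented by its brightest probe. A gene counted as risen or fallen when it differed by at least 1 on the log2 scale, which is 2-fold, with an adjusted p below 0.05 (limma with Benjamini-Hochberg adjustment over all 21629 genes). Every probe of the 9 genes was well above background on every array. The labels matched the markers of the stages: the summed signal of 7 markers of the 2-cell stage was 92110 in untreated 2-cell embryos, 83950 with T247 and 77690 with MGCD0103, against 429.2 to 11540 in the other conditions. Untreated arrays lay on slides 1 to 3, T247 arrays on slides 4 and 5 and MGCD0103 arrays on slide 6, so that slide and treatment cannot be told apart. Between 44.4 and 58.3% of the signals of an array were well above background, and correlations between arrays of a condition were at least 0.985 except among untreated 2-cell embryos, where the lowest was 0.943. Their replicate 1 also stood apart for Bag5 and Dnajb1, so that results with this group are given without it too.

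Some chaperone genes rose or fell in each step up to the 4-cell stage, and so did many of all genes. From GV to MII oocytes 0 of the 9 genes rose and 7 fell, where 0.546% and 44.7% of all genes did. From MII to the 1-cell stage 3 rose and 0 fell (16.2% and 4.42% of all genes), and from the 1-cell to the 2-cell stage 4 rose and 1 fell (18.4% and 28.8%). From the 2-cell to the 4-cell stage 3 rose and 2 fell (24.4% and 31.2%).

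After the 4-cell stage the counts ran from 0 to 4. None passed both thresholds from the 4-cell to the 8-cell stage (6.79% of all genes rose and 6.02% fell). Of the 9, 6 had an adjusted p below 0.05 in limma but missed the size limit. From the 8-cell stage to the morula 4 rose and 0 fell (26% and 5.67%), and from morula to blastocyst 0 rose and 1 fell (16.5% and 6.74%). Each of the 25 differences between stages that passed had the same sign within each of the 3 slides. These are the same arrays that gave the calls, so that the agreement is no separate support. In these counts a share near that of all genes is no result about the chaperones. This applies to the steps named above as near. From the 4-cell to the 8-cell stage and from morula to blastocyst, rises and falls together were no more frequent than among all genes. Whether the counts of the 9 genes differed from the shares of all genes was not tested.

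**Figure D1:**
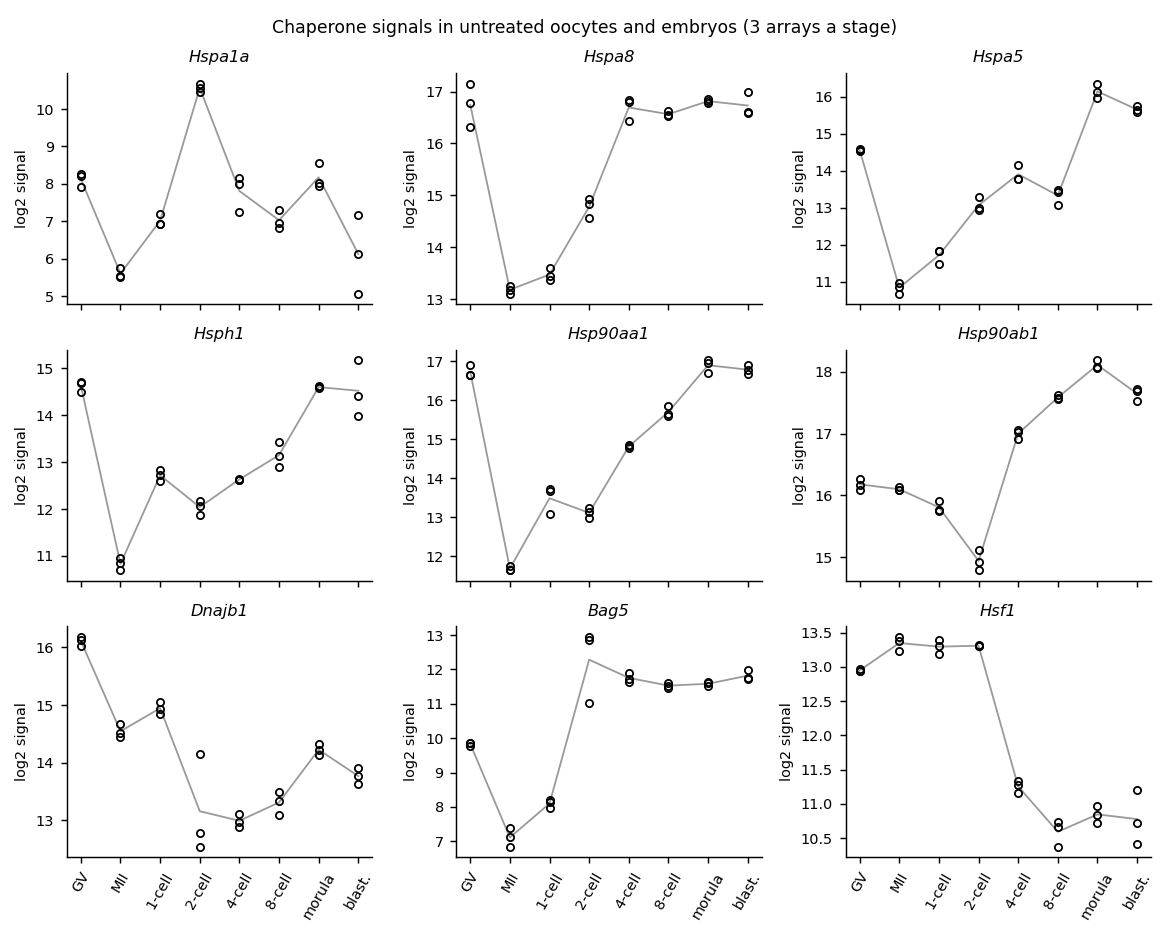
Log2 signal (vertical axis, each panel on its own scale) of the 9 chaperone genes in untreated oocytes and embryos, from GV oocyte to blastocyst (horizontal axis). Circles are single arrays, 3 a stage, and lines join the means. Hspa1a stands highest at the 2-cell stage, between 10.46 and 10.68, Hsp90ab1 stands lowest there, and 1 of the 3 arrays of 2-cell embryos lies apart for Dnajb1 and Bag5.

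By its means Hspa1a, the stress-inducible cytosolic HSP70, was lowest in MII oocytes and highest at the 2-cell stage. MII oocytes and blastocysts overlapped for this gene. Its log2 signals were 8.20, 8.27 and 7.91 in GV oocytes, 5.75, 5.53 and 5.52 in MII oocytes and 7.19, 6.93 and 6.91 in 1-cell embryos. They were 10.68, 10.55 and 10.46 in untreated 2-cell embryos and 8.00, 8.17 and 7.25 in 4-cell embryos. Neighbouring stages did not overlap over these 5 conditions. Hspa1a fell by 2.53 from GV to MII (SE 0.31, adjusted p = 1.76e-08) and rose by 1.41 to the 1-cell stage (SE 0.31, adjusted p = 0.000352). The step to the 2-cell stage was 3.55 (SE 0.31, adjusted p = 1.92e-11), an 11.7-fold rise, and the step to the 4-cell stage was a fall of 6.75-fold (log2 -2.75, adjusted p = 2.58e-09).

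After the 4-cell stage Hspa1a stayed well under its 2-cell level. It was 6.83, 7.29 and 6.96 in 8-cell embryos, 8.54, 7.94 and 8.03 in morulae and 6.13, 5.07 and 7.18 in blastocysts, the last being the widest spread of any condition for this gene (SD 1.06, n = 3). The rise to the morula, 1.15 (SE 0.31, adjusted p = 0.00206), missed the size limit when arrays were scaled to their 75th percentile (0.45) or quantile normalized (0.50), whereas the fall to the blastocyst, 2.05 on the log2 scale (adjusted p = 2.07e-06), passed under both.

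Hspa1a did not pass with either inhibitor at any stage. In T247-treated 2-cell embryos the signals were 10.75, 10.56 and 10.60 and in MGCD0103-treated ones 10.27, 10.27 and 10.38. The differences from control were 0.07 (95% interval -0.55 to 0.70) and -0.26 (-0.88 to 0.37), so that a 2-fold difference lies outside both intervals. In 4-cell embryos T247 gave 8.43, 8.96 and 8.21, above all 3 controls, with a difference of 0.73 (SE 0.31, adjusted p = 0.0543) that did not pass.

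Hspa8, the constitutive HSP70 (HSC70), lost its signal on maturation and regained it between the 1-cell and 4-cell stages. It was 16.31, 17.15 and 16.77 in GV oocytes and 13.26, 13.18 and 13.11 in MII oocytes, an 11.8-fold fall (log2 -3.56, SE 0.14, adjusted p = 1.53e-19). Untreated 1-cell, 2-cell and 4-cell embryos had means of 13.48, 14.78 and 16.69. The rises of 1.31 and 1.91 both passed (SE 0.14 each, adjusted p = 3.54e-09 and 5.91e-13). From the 4-cell stage to the blastocyst no step of the brightest probe passed.

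Of the 3 Hspa8 probes, the dimmer ones shared the fall to MII (-3.05 and -4.03) and the rise to the 4-cell stage (3.13 and 2.82). They did not pass in the step from 1 to 2 cells, with differences of -0.37 and 0.40 beside 1.31 for the brightest. The dimmest probe also rose by 1.13 to the 8-cell stage and by 1.06 to the morula, where the brightest differed by -0.13 and 0.25.

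Hspa8 fell with both inhibitors at the 2-cell stage. Control embryos read 14.57, 14.93 and 14.84, T247-treated embryos 13.78, 13.60 and 13.55, and MGCD0103-treated embryos 13.42, 13.38 and 13.50. Treated and untreated embryos did not overlap. The falls were 2.20-fold with T247 (log2 -1.14, SE 0.14, adjusted p = 1.29e-07) and 2.54-fold with MGCD0103 (-1.35, SE 0.14, adjusted p = 6.13e-09). All 3 probes passed with each inhibitor, the dimmer ones at -1.67 and -1.43 with T247 and at -1.78 and -1.49 with MGCD0103. The T247 fall of the brightest probe missed the size limit under 75th percentile scaling (-0.68) and quantile normalization (-0.82). By the brightest probe, treated 2-cell embryos were near the 13.48 of untreated 1-cell embryos. By both dimmer probes they lay below untreated 1-cell embryos. For these probes the highest arrays of treated 2-cell embryos, both with T247, read 9.33 and 11.67. The lowest arrays of untreated 1-cell embryos read 10.80 and 12.27. At the 4-cell stage with T247 the probes differed in sign: the brightest read 0.57 above control and the dimmer ones -0.75 and -0.26, none past the size limit.

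Hspa5 had the widest range of the 9 genes, 39.5-fold between the morula (16.15) and the MII oocyte (10.84). Its signals were 14.53, 14.56 and 14.60 in GV oocytes and 10.98, 10.69 and 10.86 in MII oocytes, a fall of 13.2-fold (log2 -3.72, SE 0.13, adjusted p = 4.38e-21). Untreated 1-cell embryos read 11.85, 11.50 and 11.82 and untreated 2-cell embryos 12.93, 13.28 and 12.995, a rise of 1.35 (SE 0.13, adjusted p = 2.39e-10). The largest rise came late. From 13.43, 13.09 and 13.49 in 8-cell embryos it rose 7.02-fold to 15.96, 16.36 and 16.13 in morulae (log2 2.81, SE 0.13, adjusted p = 4.34e-17), a rise that also passed under 75th percentile scaling (2.06) and quantile normalization (1.92).

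Hspa5 did not pass with either inhibitor at any stage. With T247 its 2-cell signals of 13.46, 13.32 and 13.36 lay just above the controls, with a difference of 0.31 (95% interval 0.04 to 0.58, adjusted p = 0.0511). With MGCD0103 the difference was -0.01 (-0.27 to 0.26). In the order of the 13 means, neighbouring conditions overlapped among the 1-cell conditions, between the 4-cell conditions and among the 8-cell, T247-treated 2-cell, untreated 2-cell and MGCD0103-treated 2-cell conditions.

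Hsph1, an HSP110 that serves HSP70 as nucleotide exchange factor, fell on maturation and rose again in the zygote by its brighter probe. It was 14.68, 14.70 and 14.50 in GV oocytes, 10.697, 10.95 and 10.84 in MII oocytes and 12.84, 12.61 and 12.72 in 1-cell embryos. The difference of -3.797 (SE 0.17, adjusted p = 1.30e-18) and the rise of 1.89 (SE 0.17, adjusted p = 1.29e-10) both passed. The dimmer probe did not follow, with -0.07 and -0.74 in these steps, and it fell by 1.69 to the 2-cell stage, where the brighter one differed by -0.68, so that the course of Hsph1 up to the 2-cell stage depends on the probe. Both probes rose from the 8-cell stage to the morula, by 1.45 and 1.51, but under 75th percentile scaling and quantile normalization the brighter probe was at 0.69 and 0.73.

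At the 2-cell stage both Hsph1 probes fell with both inhibitors. The brighter one read 11.88, 12.17 and 12.07 in control embryos, 11.09, 10.88 and 10.89 with T247 and 10.85, 10.88 and 10.95 with MGCD0103. No treated array reached the control range. The falls were 1.09 on the log2 scale with T247 (SE 0.17, adjusted p = 3.10e-06) and 1.15 with MGCD0103 (SE 0.17, adjusted p = 1.46e-06), and the dimmer probe gave -1.31 and -1.24. Both falls of the brighter probe missed the size limit under 75th percentile scaling (-0.65 and -0.89) and quantile normalization (-0.63 and -0.92), and that with T247 missed it without untreated replicate 2 (-0.95).

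Of the HSP90 genes, Hsp90aa1, the inducible one, had the deepest fall on maturation. It went from 16.64, 16.64 and 16.90 in GV oocytes to 11.76, 11.64 and 11.66 in MII oocytes, 32.9-fold lower (log2 -5.04, SE 0.12, adjusted p = 7.61e-25). It then rose by 1.80 to 13.72, 13.07 and 13.67 at the 1-cell stage (SE 0.12, adjusted p = 5.94e-13). Between the 1-cell and 2-cell stages it overlapped (12.99, 13.12 and 13.22), and it rose by 1.70 to the 4-cell stage (SE 0.12, adjusted p = 2.40e-13) and by 1.20 to the morula (adjusted p = 1.64e-09). GV oocytes, morulae and blastocysts overlapped at the top of its range. The rise to the 4-cell stage was at 0.98 under quantile normalization. The rise to the morula was at 0.43 under 75th percentile scaling, at 0.83 under quantile normalization and at 0.995, just under the limit, without replicate 1 of the 8-cell embryos.

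Hsp90ab1, the constitutive form, took another course. GV and MII oocytes overlapped (16.17, 16.27 and 16.09 against 16.13, 16.08 and 16.08), and their difference of -0.08 (95% interval -0.27 to 0.11) did not pass, although under 75th percentile scaling it was 1.48 and passed. Hsp90ab1 had its lowest untreated level at the 2-cell stage, 15.11, 14.92 and 14.79, and rose 4.16-fold to 16.91, 17.03 and 17.06 in 4-cell embryos (log2 2.06, SE 0.09, adjusted p = 3.41e-18). It reached 18.06, 18.08 and 18.18 in morulae.

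Of the HSP90 genes, 1 fell with both inhibitors at the 2-cell stage and 1 with T247. Hsp90aa1 read 11.68, 11.71 and 11.64 with T247 and 11.90, 11.85 and 11.78 with MGCD0103, all more than 1 below the controls, and fell by 1.43 (SE 0.12, adjusted p = 9.82e-11) and 1.27 (SE 0.12, adjusted p = 9.24e-10). The treated levels overlapped, for T247, with those of MII oocytes. Hsp90ab1 read 13.73, 13.84 and 13.78 with T247 and 14.65, 14.45 and 14.29 with MGCD0103. It fell 2.23-fold with T247 (log2 -1.16, SE 0.09, adjusted p = 2.74e-11), whereas with MGCD0103 its difference of -0.48 (95% interval -0.67 to -0.29, adjusted p = 8.52e-05) was under 2-fold. Under quantile normalization the T247 difference was -1.06 for Hsp90aa1 and -0.85 for Hsp90ab1, and under 75th percentile scaling it was -0.997, just under the limit, and -0.71.

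Dnajb1, a J protein of the cytosol, was brightest in GV oocytes (16.18, 16.13 and 16.03) and fell by 1.57 to MII (14.67, 14.52 and 14.45; SE 0.21, adjusted p = 1.45e-07). This fall rests on the scaling: it was 0.00155 under 75th percentile scaling and -0.61 under quantile normalization. From the 1-cell stage (15.06, 14.85 and 14.92) it fell by 1.79 to the 2-cell stage (SE 0.21, adjusted p = 1.38e-08), where the arrays read 14.15, 12.54 and 12.78. Replicate 1 stood above the other two, and without it the fall was 2.23 on the log2 scale.

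Dnajb1 was the only one of the 9 genes that rose with an inhibitor. MGCD0103-treated 2-cell embryos read 14.29, 14.21 and 14.20, above all 3 controls but by little above control replicate 1. The difference was 1.08 (SE 0.21, adjusted p = 0.000102), or 1.52 without control replicate 1. It was under the size limit without control replicate 2 (0.83) or 3 (0.86), and in a fit of these 6 arrays alone the adjusted p was 0.107. T247-treated embryos read 13.20, 13.24 and 13.32, inside the control range, with a difference of 0.10 (95% interval -0.34 to 0.53).

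Bag5, a nucleotide exchange factor of HSP70 with several BAG domains, took different courses by its probes. The brighter probe read 9.87, 9.77 and 9.86 in GV oocytes, 7.38, 6.84 and 7.11 in MII oocytes and 8.20, 7.95 and 8.14 in 1-cell embryos. In untreated 2-cell embryos it read 11.04, 12.87 and 12.95, with replicate 1 apart from the others, and in 4-cell embryos 11.90, 11.72 and 11.65. It fell by 2.72 on maturation (SE 0.26, adjusted p = 1.09e-10) and rose 18.2-fold to the 2-cell stage (log2 4.19, SE 0.26, adjusted p = 1.01e-14). Without replicate 1 the rise was 4.86, and the step to the 4-cell stage went from -0.53 (adjusted p = 0.0669) to a fall of 1.20 (adjusted p = 4.12e-10).

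The dimmer Bag5 probe gave another picture. Its means were 9.37 in GV oocytes, 9.46 in MII oocytes, 9.06 in 1-cell and 9.23 in untreated 2-cell embryos, none of these steps passing. It rose by 1.56 only from the 2-cell to the 4-cell stage (SE 0.12, adjusted p = 1.31e-12), to 10.80. The plot of genes with several probes sets these courses side by side.

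**Figure D2:**
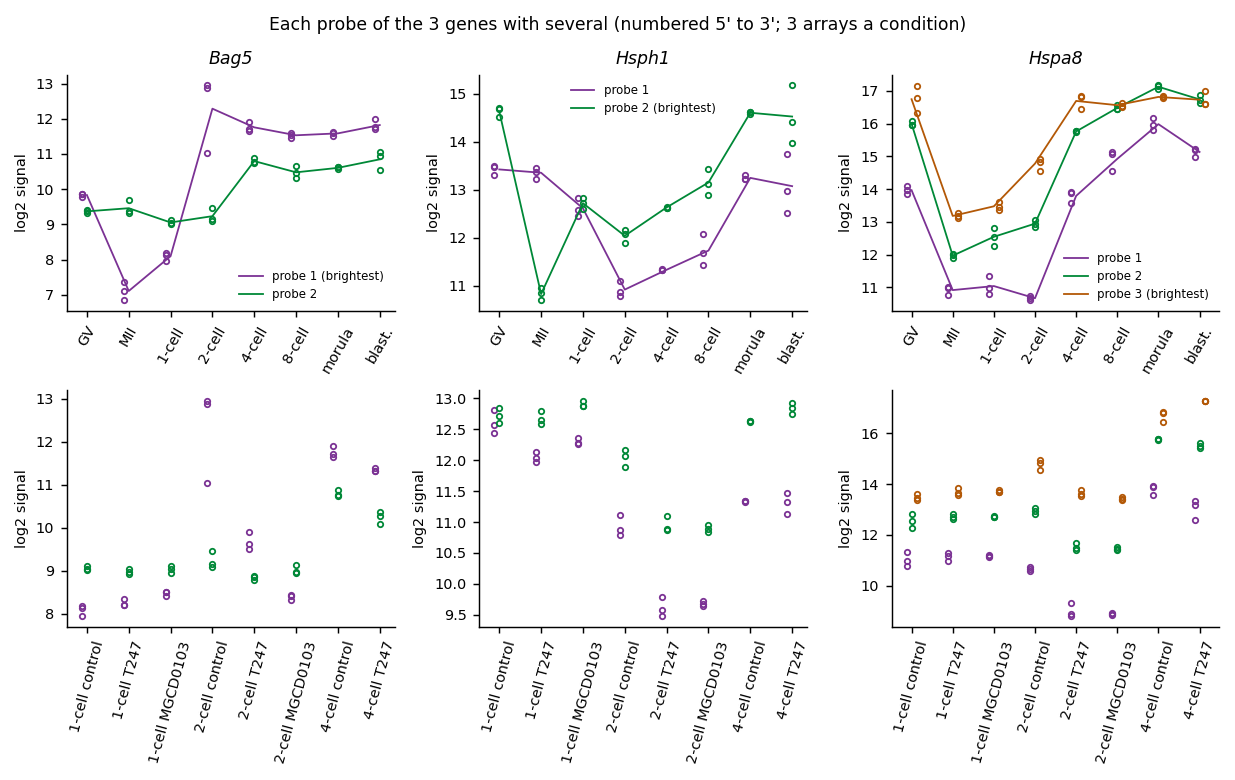
Log2 signal of each probe (vertical axis) of the 3 chaperone genes with several probes, over the 13 conditions (horizontal axis), means of 3 arrays with single arrays as points. The Hspa8 probes share the low values of treated 2-cell embryos, the Hsph1 probes part at MII, and the Bag5 probes part at MII and at the 2-cell stage (12.29 against 9.23 in untreated embryos).

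The inhibitor results of Bag5 are those of the brighter probe as well. It read 9.90, 9.52 and 9.62 in T247-treated and 8.42, 8.33 and 8.45 in MGCD0103-treated 2-cell embryos, so that the 3 groups did not overlap. It was 6.09-fold lower with T247 (log2 -2.61, SE 0.26, adjusted p = 1.45e-09) and 14.8-fold lower with MGCD0103 (-3.88, SE 0.26, adjusted p = 4.28e-13), and -3.28 and -4.56 without control replicate 1. The dimmer probe differed by -0.39 (SE 0.12, adjusted p = 0.00904) and -0.22 (SE 0.12, adjusted p = 0.145), under the size limit with both.

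Hsf1 stayed level through the first stages and then dropped. It was between 12.94 and 13.44 on every array from the GV oocyte to the untreated 2-cell embryo, and between 10.37 and 11.33 on every untreated array from the 4-cell stage on. The fall from 13.32, 13.30 and 13.31 at the 2-cell stage to 11.33, 11.16 and 11.28 at the 4-cell stage was 4.16-fold (log2 -2.06, SE 0.12, adjusted p = 2.95e-15). The difference between MII and GV oocytes was 0.40 as normalized here and did not pass, but 1.92 and 1.95 under 75th percentile scaling and quantile normalization, where it passed. With the inhibitors Hsf1 did not pass at any stage, and its 2-cell differences were -0.19 (95% interval -0.44 to 0.07) with T247 and -0.00 (-0.26 to 0.25) with MGCD0103.

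The median of all genes also moved between the oocyte stages. From GV to MII it was -0.85, against 0.61 under 75th percentile scaling and 0.24 under quantile normalization. Relative to that median, the falls of Hspa8, Hspa5, Hsph1 and Hsp90aa1 were -2.71, -2.87, -2.94 and -4.19, and between -2.61 and -4.66 under the 4 other scalings. These 4 had the largest falls. The smaller falls of Bag5 (-2.72), Hspa1a (-2.53) and Dnajb1 (-1.57) are not given relative to the median. By its dimmer probe Hsph1 was at -0.07 before the median was taken off. Of the GV arrays, 7 of 10 cumulus cell markers were well above background on all 3, against 3 of 10 in MII oocytes, with summed signals of 20880 and 18830. Amh, Tnfaip6 and Ptx3 were not well above background in either, and Foxl2 held 16490 and 15290 of these sums. Their part in the differences was not tested.

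No chaperone gene passed with an inhibitor in 1-cell embryos: 0 of the 9 passed with T247, where 8.23% of all genes rose and 0.846% fell, and 0 with MGCD0103, where 5.05% rose and 0.689% fell. Unadjusted p-values of limma were below 0.05 for 2 of the 9 with each, and adjusted ones for 2 with T247 and 1 with MGCD0103. The largest 1-cell difference that had an adjusted p below 0.05 was that of Hsp90aa1 with MGCD0103, 0.57 (SE 0.12, adjusted p = 0.00141), with treated arrays at 14.04, 14.08 and 14.06, above all controls.

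At the 2-cell stage 5 of the 9 genes fell with T247 and none rose, where 15.7% of all genes fell and 9.15% rose. With MGCD0103, 4 fell and 1 rose, where 15.2% of all genes fell and 12.2% rose. The untreated arrays were the same in both comparisons. Hspa8, Hsph1, Hsp90aa1 and Bag5 fell with each inhibitor, Hsp90ab1 with T247 and not past the limit with MGCD0103, and Hspa1a, Hspa5 and Hsf1 passed with neither. Without control replicate 1 the counts were again 5 with T247 and 4 fallen and 1 risen with MGCD0103. At the 4-cell stage 0 of the 9 passed with T247 (13.2% of all genes rose and 5.08% fell). In limma 3 had an unadjusted p and 2 an adjusted p below 0.05.

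**Figure D3:**
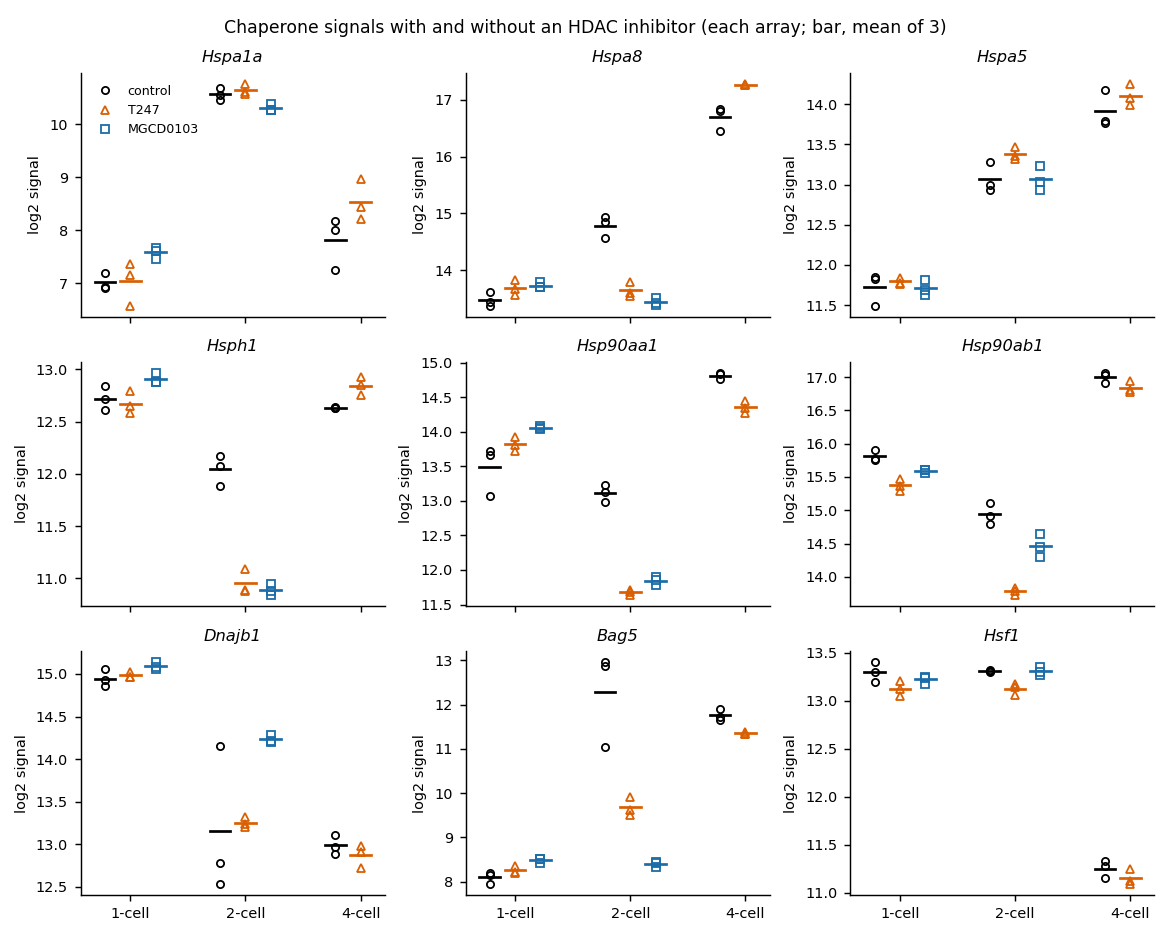
Log2 signal (vertical axis, each panel on its own scale) of the 9 chaperone genes at 3 stages, 1-cell, 2-cell and then 4-cell (horizontal axis) in untreated, T247-treated and MGCD0103-treated embryos, 3 arrays each, with lines through the means. Hspa8, Hsph1, Hsp90aa1 and Bag5 lie below the controls at the 2-cell stage with both inhibitors, while Hspa1a stays between 10.27 and 10.75 in all 9 arrays.

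The calls of 2-cell embryos with T247 changed with the scaling. Under 75th percentile scaling 1 of the 9 passed with T247, Bag5 by its brighter probe. As normalized here, the dimmer Bag5 probe was at -0.39. Under quantile normalization 2 passed, Bag5 and Hsp90aa1. The median of all genes was -0.23 as normalized here and 0.21 and 0.01 under these scalings. Relative to the median Hspa8 was at -0.91, -0.89 and -0.83 under the 3 scalings, and Hsp90aa1 at -1.21, -1.21 and -1.07. Markers of other stages moved with these results. Of 7 markers of the blastocyst, 3 rose with each inhibitor (Krt8 by 1.64 and 1.72, Krt18 by 1.71 and 1.77, Gata3 by 1.07 and 1.56), the summed signal of 8 being 2716 in control, 6099 in T247-treated and 6656 in MGCD0103-treated embryos, and 573300 in blastocysts. Of 7 oocyte markers tested 1 fell with each, Zp3 (-1.70 and -1.18). Their part in the chaperone results was not tested.

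**Figure D4:**
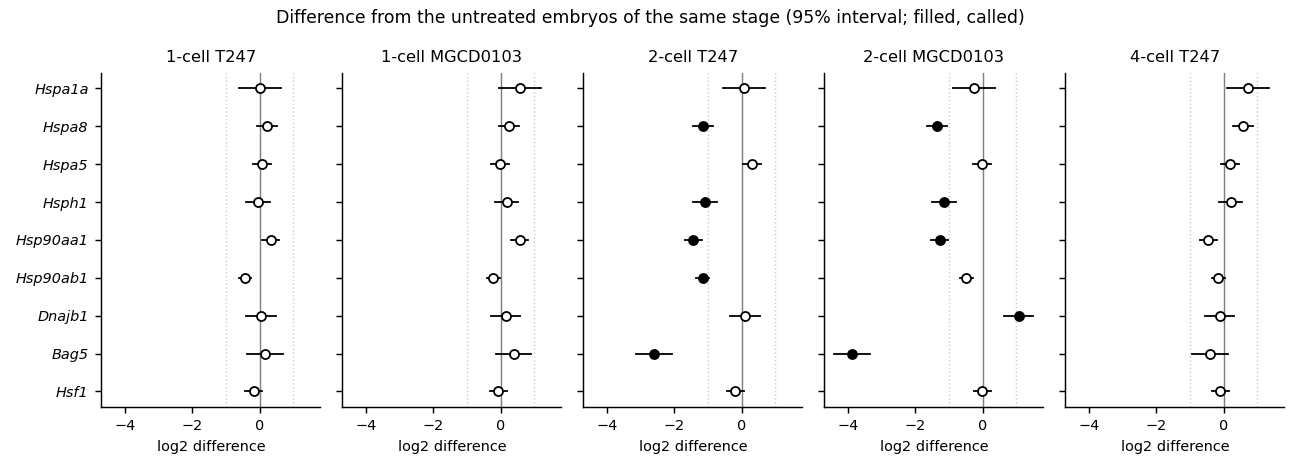
Log2 difference from untreated embryos of the same stage (horizontal axis) of the 9 chaperone genes (rows), with 95% intervals; filled points passed both thresholds and dotted lines mark a 2-fold difference. No point is filled at the 1-cell and 4-cell stages, 5 are filled with T247 and 5 with MGCD0103 at the 2-cell stage.

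**Figure D5:**
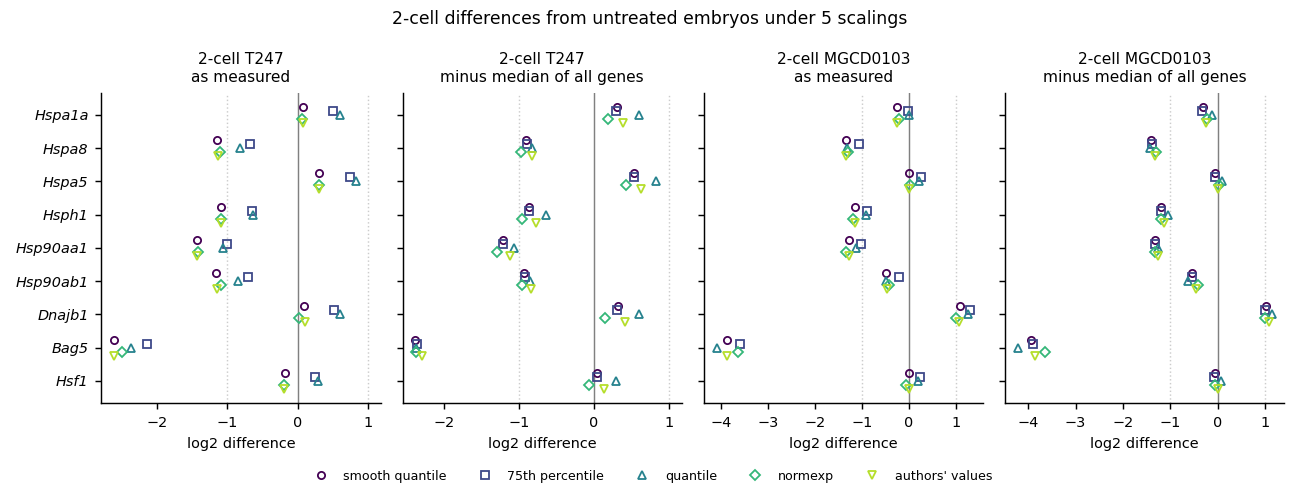
Log2 difference of treated from untreated 2-cell embryos (horizontal axis) of the 9 chaperone genes (rows) under 5 scalings, as measured and after subtraction of the median of all genes. With T247 the values of Hspa8 run from -1.14 to -0.68 as measured and draw together, from -0.98 to -0.82, after the subtraction.

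Whether an inhibitor difference itself changed between stages was tested as a difference of differences. From the 1-cell to the 2-cell stage it fell for 4 of the 9 genes with T247 (15.2% of all genes fell and 3.40% rose) and for 4 with MGCD0103 (16% and 4.96%). These were Hspa8 (-1.35 and -1.60), Hsph1 (-1.04 and -1.33), Hsp90aa1 (-1.77 and -1.84) and Bag5 (-2.76 and -4.27). The T247 change of Hsph1 missed the size limit under 75th percentile scaling (-0.55, adjusted p = 0.0650), quantile normalization (-0.57), normexp correction (-0.98), with the mean of its probes (-0.89) or the dimmer probe (-0.74), and without 1-cell control replicate 2 (-0.99), 2-cell control replicate 2 (-0.90) or 2-cell T247 replicate 2 (-0.97). Its MGCD0103 change missed it under 75th percentile scaling (-0.94) and with the dimmer probe (-0.93), and the T247 change of Hspa8 under 75th percentile scaling (-0.85). With T247 it rose from 2-cell to 4-cell embryos for 3 genes, Hspa8 (1.71), Hsph1 (1.30) and Bag5 (2.20), where 18.2% of all genes rose and 6.02% fell. Of these, Hsph1 missed the limit under 75th percentile scaling (0.88) and quantile normalization (0.87), and Hspa8 with its dimmest probe (0.92). Hsp90aa1 at 0.97 and Hsp90ab1 at 1.00 (0.999) had adjusted p-values of 6.17e-05 and 8.67e-07 but did not reach the size limit. By its dimmer probe Bag5 was at -0.32, -0.19 and -0.17 in these comparisons and passed in none.

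The inhibitors were given at the same dose and time and compared directly at both stages, 9 genes at each. At the 1-cell stage 0 of the 9 differed (0.0231% of all genes were higher and 0.134% lower with MGCD0103), and 1 had an unadjusted p below 0.05. At the 2-cell stage 1 was lower with MGCD0103 than with T247 (2.60% of all genes were higher and 2.15% lower): Bag5, by 1.28 on the log2 scale (SE 0.26, adjusted p = 0.000550). By the dimmer probe the difference was 0.17 (adjusted p = 0.308). Hsp90ab1 was higher with MGCD0103 by 0.68 (95% interval 0.49 to 0.87, adjusted p = 6.69e-06) and Dnajb1 by 0.98 (0.54 to 1.42, adjusted p = 0.00110), neither reaching 2-fold. The intervals of Hspa8 (-0.50 to 0.09), Hsph1 (-0.40 to 0.28) and Hsp90aa1 (-0.09 to 0.42) left no room for a 2-fold difference. T247 and MGCD0103 arrays lay on different slides here too.

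Of the genes on other chaperone lists, also chosen with earlier results of these data known, 79 were tested. Those lists also held heat shock factors and endoplasmic reticulum stress genes such as Xbp1, so that not all 79 encode chaperones. Their counts are given under smooth quantile normalization alone. From GV to MII 0 of the 79 rose and 42 fell, where 0.546% and 44.7% of all genes did, among them Hspa4 (-5.88), Bag1 (-4.88) and Dnajb12 (-4.73), an HSP110, a BAG protein and a J protein of the endoplasmic reticulum membrane. Between 2-cell and 4-cell embryos 28 rose and 23 fell, where 24.4% and 31.2% of all genes did. The chaperonin list held subunits of the ring that folds actin and tubulin, and also Hspd1 and Hspe1 of the mitochondrial chaperonin. Of its 10 genes 8 rose, with a median of 2.08 beside -0.19 over all genes, and Cct4 rose by 3.83. Dnaja4 (-4.92) and Dnajb4 (-4.76) fell in that step.

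At the morula 41 of the 79 rose and 2 fell, where 26% and 5.67% of all genes did. Directions in this step depend on the scaling. The share of rises among all calls was 82.09%, against 41.19% under 75th percentile scaling and 51.43% under quantile normalization. Of the 16 genes of the endoplasmic reticulum stress list, 12 rose, with a median of 2.28 beside 0.46 over all genes. Herpud1, which serves the removal of misfolded proteins from the reticulum, rose by 5.84 (SE 0.35, adjusted p = 1.79e-14), and Xbp1, whose product acts on elements like that of Hspa5, by 5.44 (SE 0.31, adjusted p = 4.36e-15). Hsp90b1, the HSP90 of the reticulum, rose by 4.47 (SE 0.14, adjusted p = 1.05e-20). Ern1 and Dnajb14 were the 2 that fell, by 1.21 and 2.82. Hspa5 had its own largest rise in the same step.

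With the inhibitors, 20 of the 79 fell and 5 rose in 2-cell embryos with T247 (15.7% and 9.15% of all genes), and 23 fell and 5 rose with MGCD0103 (15.2% and 12.2%). Cct3 (-2.08) and Tcp1 (-1.95), subunits of the chaperonin, led the falls with T247 beside Hsf4 (-2.54), and Dnajb9 (-2.55), Cct6a (-2.38) and Hsf4 (-2.31) those with MGCD0103. Xbp1 rose by 4.16 (SE 0.31, adjusted p = 5.75e-12) and 4.31 (SE 0.31, adjusted p = 2.06e-12), and Herpud1 by 2.69 and 2.28. Of the 16 genes of the endoplasmic reticulum stress list, 2 rose and 6 fell with T247, and 2 rose and 7 fell with MGCD0103, while Hspa5 did not pass. At the 4-cell stage with T247 4 of the 79 rose and 1 fell (13.2% and 5.08% of all genes), led by the small heat shock protein gene Hspb1 (2.63, SE 0.30, adjusted p = 5.90e-08) and by Hsbp1 (-1.02), whose product binds HSF1. In 1-cell embryos 2 rose and 1 fell with T247 (Hspa12b 1.59, Cryab 1.22 and Atf6 -1.67), where 8.23% and 0.846% of all genes did. With MGCD0103 1 rose (Hsf2, 1.24) and 0 fell, where 5.05% and 0.689% of all genes did.

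The genes whose 13 condition means ran most like those of Hspa5 were Nelf (Pearson's r = 0.966), AI413582 (0.962) and 1810063B05Rik (0.961). For Hsp90aa1 they were Trappc2l (0.992), Ckb (0.990) and Nit1 (0.988). These coefficients describe 13 means that share arrays and scaling.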

How the data were processed

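RNA from 13 conditions, 3 arrays each, was measured on 1-colour Agilent arrays (59305 spots, 55681 probes). The authors deposited one scanner table per array with intensity on a linear scale, background-subtracted and detrended by Agilent Feature Extraction (version 9.5.1.1 per the labels; the file headers name another), not normalized between arrays. The authors also deposited log2 values of the series matrix, made from positive and significant spots with missing values filled in and smooth quantile normalization; these served as an alternative.

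Outlier spots were left out and spots of a probe averaged. A probe was kept if, in every condition, 1 or more of the 3 arrays flagged it as positive and significant (29782 probes), and log2 intensities were smooth quantile normalized (window 0.05), with code written for this work and no filling in. The file of MGCD0103-treated 1-cell replicate 1 holds values rounded to 3 digits. The brightest probe represented each gene name, and 13 groups were fitted over all 39 arrays with limma 3.58.1 (R 4.3.3) in 17 comparisons. Files were read with Python 3.11.15. Slides follow the barcodes in the files. The procedure was tested on simulated data.

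The chaperone genes and all gene lists were chosen with earlier results of these data known. Named in the text were all 10 genes, up to 3 genes with the largest rise and 3 with the largest fall of the other chaperone lists in each comparison, the 3 genes closest to each of the 2 members with the widest range, and markers; some of these were left out for length. Among untreated arrays the replicate number equals the slide. Same-numbered arrays deviated together, with every correlation over 0.1, only between the 4-cell and 8-cell stages (0.126 to 0.189), and there the block changed no call. Alternatives were other scalings, background correction, detection filters, probes, samples in the fit, blocks, the authors' values and leaving out each array. The number of arrays, 3 a condition, limits the precision; no spot was saturated (0). Sperm markers were checked: 1 to 4 of 8 were well above background on all arrays of a condition. The sequence of 1 probe is not reported here.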

Additional observations from a re-analysis of the deposited data

Results flagged for a closer look

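In 15 cases the difference between treated and untreated embryos changed between stages by the test of that change (limma, adjusted p below 0.05). With MGCD0103 from the 1-cell to the 2-cell stage it changed for Hspa8 by -1.60 (SE 0.20, adjusted p = 3.33e-07), Hsph1 by -1.33 (SE 0.24), Hsp90aa1 by -1.84 (SE 0.18), Bag5 by -4.27 (SE 0.37) and Dnajb1 by 0.93 (SE 0.30, adjusted p = 0.0180). The Dnajb1 value was 1.38 without untreated 2-cell replicate 1. With T247 over the same step it changed for Hspa8 by -1.35 (SE 0.20), Hsph1 by -1.04 (SE 0.24, adjusted p = 0.00101), Hsp90aa1 by -1.77 (SE 0.18), Hsp90ab1 by -0.72 (SE 0.13) and Bag5 by -2.76 (SE 0.37).

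From 2-cell to 4-cell embryos the changes with T247 were 1.71 for Hspa8 (SE 0.20), 1.30 for Hsph1 (SE 0.24), 0.97 for Hsp90aa1 (SE 0.18), 1.00 for Hsp90ab1 (0.999, SE 0.13) and 2.20 for Bag5 (SE 0.37, adjusted p = 2.29e-05). The 3 sets share the untreated and treated 2-cell arrays. For Bag5 the dimmer probe was at -0.19, -0.32 and -0.17.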

How the results depend on the processing

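Of 13 alternatives, 9 left the count of chaperone genes past the thresholds within 1.5 times in all 17 comparisons; the authors' values and the replicate block kept the side of all 153 values. With the replicate number as a block, 7 fell from GV to MII, and 5 passed at the 2-cell stage with each inhibitor. Under 75th percentile scaling 1 of 4 stayed past the limits at the morula, 1 of 5 with T247 in 2-cell embryos and 2 of 4 in its change from the 1-cell stage; under quantile normalization 1 and 2 in the first pair. With the mean of all probes 0 differed between inhibitors at the 2-cell stage. With the dimmest probe, an alternative added after seeing the data, 1 passed from 4-cell to 8-cell embryos, 0 between inhibitors at the 2-cell stage, 2 in each change from the 1-cell stage and 1 in that to the 4-cell stage.

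Directions turned under 75th percentile scaling for Dnajb1 (0.00155) and Hsp90ab1 (1.48) from GV to MII. With the dimmest probe they turned for Bag5 from GV to MII (0.0899), from the 2-cell to the 4-cell stage (1.56), between inhibitors (0.17) and in the T247 change to the 4-cell stage (-0.17), for Hsph1 from MII to the 1-cell stage (-0.74), and for Hspa8 from 1-cell to 2-cell (-0.37) and 4-cell to 8-cell embryos (1.13). Leaving out 1 array, the counts ran from 2 to 5 at the morula (2 without 8-cell replicate 1), 0 to 1 at the 8-cell stage (1 without the same array), 3 to 5 in the T247 change to the 4-cell stage (5 without 4-cell control replicate 3, 2-cell T247 replicate 3 or 4-cell T247 replicate 1) and 1 to 2 between inhibitors at the 2-cell stage (2 without T247 replicate 3 or MGCD0103 replicate 2).

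The share of higher among all calls moved with the scaling. It was 1.205% from GV to MII, 78.55% to the 1-cell, 53.03% to the 8-cell stage, 82.09% to the morula and 70.93% to the blastocyst. Under 75th percentile scaling these were 64.98, 61.68, 37.95, 41.19 and 54.51%, under quantile normalization 51.73, 60.95, 42.68, 51.43 and 54.23%, and to the 2-cell stage it went from 38.97 to 55.45% under the first. With T247 at the 2-cell stage it was 36.8%, against 72.23, 54.2 and (authors' values) 26.41%; with MGCD0103 44.43%, against 62.97% and (normexp) 31.99%. Under quantile normalization it went from 90.68 to 77.85% (T247) and from 87.99 to 74.31% (MGCD0103) in 1-cell embryos and from 72.18 to 58.89% (T247) in 4-cell embryos. Between inhibitors it was 54.72% at the 2-cell stage, against 18.2 and 29.27%, and 14.71% at the 1-cell stage, against 2.439 and (authors' values) 25%. In the changes to the 2-cell stage it was 18.26% (T247; 54.63 and 46.9%) and 23.65% (MGCD0103; 52.02 and 44.49%), and in that to the 4-cell stage 75.15% (44.24 and 48.66%).

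Counts over all genes moved most under normexp correction: from 4462 to 2632 (MII to 1-cell), 2770 to 1028 (8-cell), 6851 to 4437 (morula) and 5016 to 3009 (blastocyst); with T247 from 1963 to 780, 5375 to 3105 and 3950 to 1537 at the 3 stages, with MGCD0103 from 1241 to 505 and 5935 to 3561, between inhibitors from 34 to 7 and 1027 to 312, and in the change to the 4-cell stage from 5240 to 3272. With the authors' values (14835 genes tested) they were 1618, 3083, 1118 and 2220 (8-cell, blastocyst, T247 at 1-cell and 4-cell), 712 and 3943 (MGCD0103) and 12 and 587 (between inhibitors). Without a detection filter 86 and 1680 differed between inhibitors, and the 1-cell count was 18 with the stricter filter, 101 with the compared groups alone, 16 with slide as a random block and 12 to 21 without 1 array; 680 differed at the 2-cell stage without T247 replicate 1. The T247 change to the 2-cell stage counted 6100 without untreated 2-cell replicate 1, against 4026. The cause of these shifts was not tested.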
